A study of Homo sapiens with 10 samples.

Results

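The replication-dependent histone genes supply the linker histone H1 and the core histones H2A, H2B, H3 and H4 while DNA is copied. They were taken by symbol alone, as every gene named H1- with a number up to 6 and every H2AC, H2BC, H3C or H4C gene, and 28 of the 18034 genes analysed here met that rule. Of these, 2 encode H1, 9 encode H2A, 8 encode H2B, 3 encode H3 and 6 encode H4. In the coordinates of the files (GRCh38), 21 lie on chromosome 6 between 26055740 and 27893185, and 7 lie on chromosome 1 between 149810406 and 149887411. The inhibitor table held 19 of them, each knockdown table held 25, and 18 were in all 3 tables.

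All libraries came from HCT116, a human colorectal carcinoma cell line, with 2 libraries in each of 5 groups. In the inhibitor experiment, cells received EPZ-5676 (EPZ), an inhibitor of the histone H3 methyltransferase DOT1L, at 10 µM for 72 h, and the control cells received the solvent DMSO. In the knockdown experiment every line carried an shRNA against CDK9, which as part of P-TEFb phosphorylates RNA polymerase II and its pausing factors, and no drug. The K56A line also expressed CDK9 with the K56A substitution, the WT line expressed wild-type CDK9, and the line labelled EV, which the labels do not spell out, is the one both were set against. How many clones each line holds, and whether the 2 libraries of a group came from separate cultures, is not stated, so the p-values below measure only the spread between these libraries, which may be technical. Levels are FPKM, a fragment count per transcript length and per mapped fragments of the library, summed per gene over its transcripts.

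Most mRNAs end in a poly(A) tail, but mRNAs of replication-dependent histone genes normally end just after a conserved stem-loop that is bound by the stem-loop binding protein SLBP and cut with the help of the U7 snRNP. Where that cut is missed, or in cells leaving the cell cycle, some histone genes give longer mRNAs that end in a poly(A) tail further downstream. The libraries were made with an mRNA kit that captures poly(A) tails, so the levels here are mainly those of such polyadenylated forms and not of the bulk of histone mRNA in S phase. CDK9 is also known for a role at this step, through the cap-binding complex, the elongation factor NELF and ubiquitylation of histone H2B, a mark that stimulates DOT1L.

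The stem-loops are shown because they mark the usual end of a histone mRNA, past which some annotated transcripts in the tables run. Each line gives the motif in capitals, with 5 bases on either side, from the GENCODE 29 transcript whose coordinates equal those of the files.
H2AC6-201: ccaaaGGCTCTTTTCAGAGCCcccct
H2BC21-201: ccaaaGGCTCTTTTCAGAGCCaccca
H2BC5-202: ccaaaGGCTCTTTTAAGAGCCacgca
H2AC11-201: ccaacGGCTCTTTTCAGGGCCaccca
H4C14-201: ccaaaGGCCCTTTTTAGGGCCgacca
H4C5-201: tcaaaGGCCCTTTTCAGGGCCgccca
The motif searched, on the transcript strand, was GGC, any base, CTTTT, any base, AG, any base and GCC, without gaps. Of the 36 member transcripts in the tables, 24 had equal coordinates in both annotations, and 18 of these, from 15 genes, held the motif in 5 versions. Among the 76294 table transcripts found in GENCODE 29 the share with the motif was 0.0367%, or 28 transcripts, and the genes outside the rule that held it were H2AW, H2AX, H2BC19P, H2BC20P, H2BU1, H4-16 and NOP58. The version shown for H2AC6 and H2BC21 was the commonest, in 9 genes, and the H4C14 version was shared by H4C14, H4C15 and H4C9.

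In 14 of the 18 transcripts with the motif, from 11 genes, the annotated RNA runs on past it, by 194 to 1761 bases with a median of 896. The other 4 (H2AC13-201, H2AC18-201, H2AC19-201 and H2BC5-202) end within 50 bases of it. A further 6 transcripts of 5 genes lack the motif, among them H2BC4-201, H2BC5-201 and H3C6-202, each of which has 2 exons. The canonical poly(A) signals AATAAA or ATTAAA occur in the last 50 bases of 19 of the 24 transcripts, or 79.2%, against 41.7% of all table transcripts found. They are in 11 of the 14 that run past the motif, 3 of the 4 that end within 50 bases of it and 5 of the 6 without it. The signal therefore does not set these kinds of end apart. The last 30 bases of some of the annotated transcripts measured below are shown with that signal in capitals, chosen among those that hold it there. Poly(A) capture would take such an RNA only where it carries a tail, which the letters do not show.
H2AC6-201: tAATAAAaggtaatgcaaagggagaggaaa
H2BC4-201: agacaaaATTAAAataactcctagtatctc
H2BC5-201: taattAATAAAatctgcggagaattgtaaa
H2BC21-201: gttattAATAAAgttaccaattaatttaaa
H3C6-202: agatgtaaAATAAAagattactgaacagaa
A motif in these letters is a description of the annotated sequence and does not show which end was used in these cells. The remaining 12 member transcripts, among them those of H1-2, H2BC12 and H4C12, differ in coordinates between the 2 annotations and were left out of these counts.

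The libraries were checked first. CDK9 stood at 2611 and 2500 FPKM in the K56A line, 3060 and 2976 FPKM in the WT line, and 16.4 and 19.4 FPKM in the EV line, and at 38.5 to 41.9 FPKM in EPZ cells against 37.6 to 43.9 FPKM in DMSO cells. DOT1L also differed between the knockdown lines, at 733 and 703 FPKM in K56A, 578 and 568 FPKM in WT and 324 and 343 FPKM in EV, and stood at 10.7 and 10.4 FPKM in EPZ cells against 12.6 and 12.5 FPKM in DMSO cells. Every knockdown library, EV included, thus listed DOT1L far above the inhibitor libraries, which were normalised separately, and the origin of this was not tested. Every contrast of CDK9 lines below is also one between lines with unequal DOT1L mRNA, and the part of either gene in a histone value cannot be told apart. Of 9 epithelial markers, 8 were at 1 FPKM or more in all 5 groups, with sums of 2629 to 2884 FPKM in EPZ, 2688 to 2847 FPKM in DMSO, 1915 to 1931 FPKM in K56A, 1824 to 1837 FPKM in WT and 1941 to 1993 FPKM in EV. Summed leukocyte markers reached at most 0.634 FPKM, endothelial markers at most 0.618 FPKM and hepatocyte markers at most 1.02 FPKM, while of 5 fibroblast markers COL1A2, COL3A1 and DCN were not listed and the other 2 summed to 19.4 to 36.3 FPKM over all libraries. Replicates correlated across genes on the log2 scale with r of 0.981 (DMSO) to 0.994 (K56A). The read depth of the libraries is unknown, so no counting interval can be given for a low FPKM.

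With EPZ, most of the histone genes stood higher than with DMSO, but no single one passed the test across all genes. Summed over the 19 genes, the level was 60.5 and 59.2 FPKM in EPZ cells, against 46.34 and 40.96 FPKM in DMSO cells, or 59.9 ± 0.942 and 43.65 ± 3.802 FPKM (mean ± SD, n = 2 each). Both EPZ libraries lay above both DMSO libraries. These sums were 0.0105% and 0.0101% of all FPKM with EPZ, and 0.00794% and 0.00715% with DMSO. H2AC6, H2BC4, H4C14 and H2BC5 had the smallest p-values. In bulk RNA, a difference in the number of cells that hold an mRNA and one in the amount per cell cannot be told apart.

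**Figure D1:**
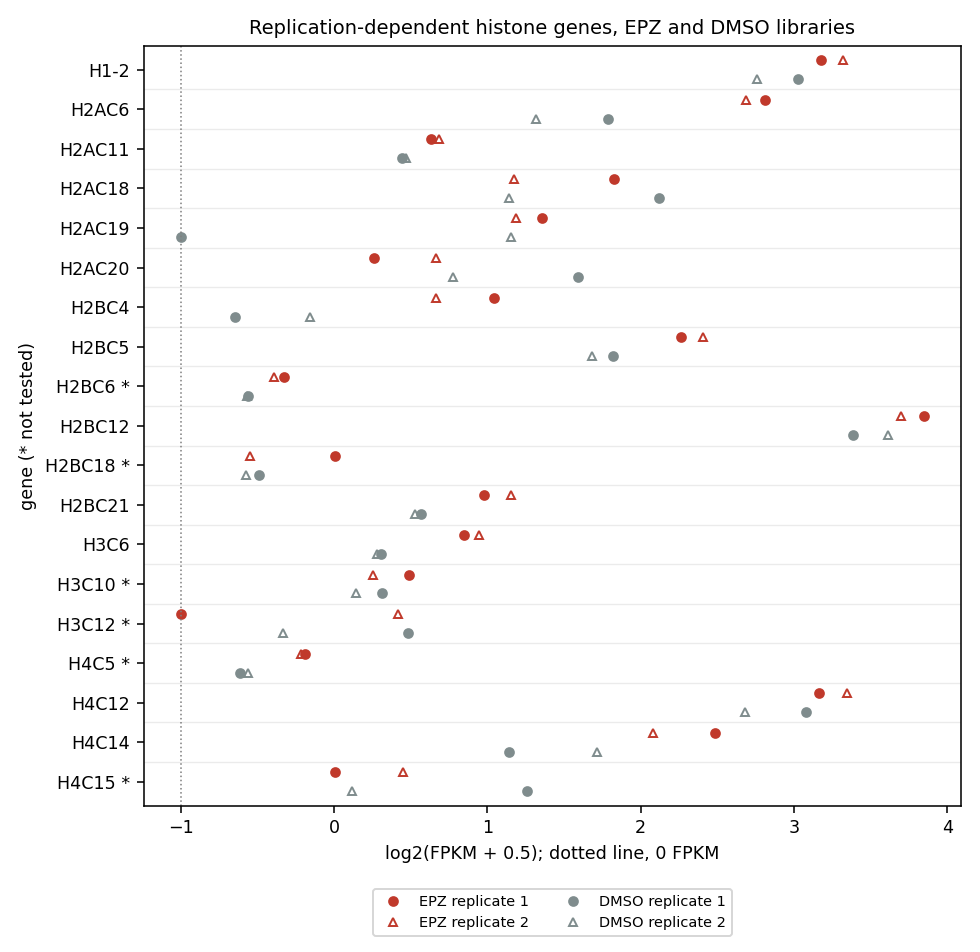
Level of each of the 19 histone genes in every library of the inhibitor experiment, as log2(FPKM + 0.5) on the horizontal axis, with EPZ libraries in red above DMSO libraries in grey, filled circles for replicate 1 and open triangles for replicate 2. The EPZ points lie to the right of both DMSO points for 13 genes and to the left of both for H2AC20, and genes marked with an asterisk were below the FPKM minimum and not tested.

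The test was limma on log2(FPKM + 0.5), with Benjamini-Hochberg adjustment over all genes at or above 1 FPKM in at least 2 libraries, and fold changes on this scale understate the change of low genes. Of the 13 histone genes tested, 0 passed an adjusted p of 0.05, where 0.00762% of all 13130 genes did. At an unadjusted p under 0.05, 4 of the 13 were higher and 0 lower, against 2.99% of all genes higher and 5.83% in either direction. H2BC4, H2AC11, H3C6 and H2BC21 reached the FPKM minimum only through the EPZ libraries. H2AC19, at 0 and 1.73 FPKM with DMSO, also needed an EPZ library to meet it. The 13 were therefore not chosen independently of the difference, and their count is not read as support. Without the minimum, all 19 genes could be counted: 15 had a log2 fold change above 0 (52.1% of all 15586 genes did), and their median was 0.35 against 0.01 over all genes. In 13 of the 19 both EPZ libraries lay above both DMSO libraries, against 19.6% of all genes, and in 1, H2AC20, both lay below, against 17.6% of all genes. The 13 include H2AC19, whose sum with its near-identical copy H2AC18 overlapped between the groups.

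By class, the sum of the 6 H2B genes was 22.0 and 20.5 FPKM with EPZ against 14.5 and 16.1 FPKM with DMSO. The 5 H2A genes summed to 13.4 and 11.7 FPKM with EPZ against 10.2 and 7.52 FPKM with DMSO. The 4 H4 genes summed to 14.4 and 14.6 FPKM with EPZ, against 11.7 and 9.45 FPKM with DMSO. In these classes, and for the single H1 gene, the groups did not overlap. A class sum does not show a difference in each of its genes. In the H2A sums, H2AC6 alone held 6.52 and 5.94 FPKM with EPZ against 2.95 and 1.99 FPKM with DMSO. Of the other H2A genes, H2AC11 was higher with EPZ, H2AC20 was lower, and the sum of H2AC18 and H2AC19 overlapped. In the H4 sums, H4C14 held 5.10 and 3.72 FPKM with EPZ against 1.70 and 2.78 FPKM with DMSO. H4C12 and H4C5 were also higher, and H4C15 overlapped. The 3 H3 genes, at 2.20 and 2.95 FPKM with EPZ against 2.38 and 1.61 FPKM with DMSO, overlapped.

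**Figure D2:**
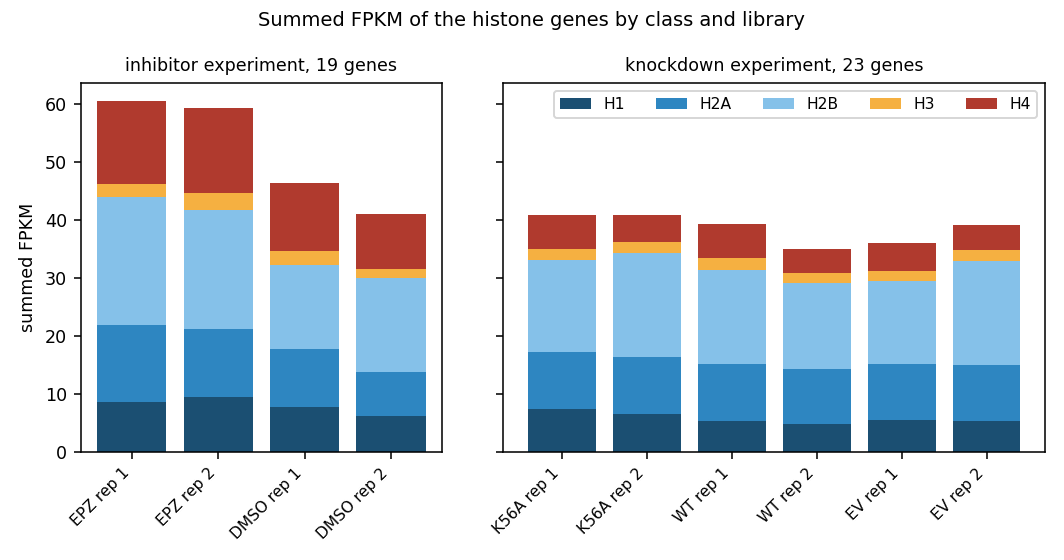
Summed FPKM of the histone genes in each library, stacked by histone class, for the 19 genes of the inhibitor experiment (left panel, EPZ then DMSO) and the 23 genes in both knockdown tables (right panel, K56A, WT, then EV). The EPZ bars reach 60.5 and 59.2 FPKM, the DMSO bars 46.34 and 40.96 FPKM, and the 6 knockdown bars lie between 35.0 and 40.9 FPKM, but the panels hold different gene sets that were normalised separately.

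H1-2 (ENSG00000187837, chromosome 6, 26055740 to 26056470, minus strand), which encodes the linker histone H1.2, had 8.52 and 9.47 FPKM in EPZ cells against 7.66 and 6.25 FPKM in DMSO cells. The log2 fold change was 0.35 ± 0.16 (SE; limma adjusted p = 0.756).

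H2AC6 (ENSG00000180573, chromosome 6, 26124145 to 26139116, plus strand) encodes a core histone H2A and had the smallest p of the family. It stood at 6.52 and 5.94 FPKM in EPZ cells, against 2.95 and 1.99 FPKM in DMSO cells, so that the log2 fold change came to 1.20 ± 0.21 (SE; limma adjusted p = 0.756). Both of its listed transcripts were higher in both EPZ libraries. H2AC6-201, which runs 1128 bases past the stem-loop and is classed in the files as a target of nonsense-mediated decay, had 4.20 and 4.15 FPKM with EPZ against 2.50 and 1.12 FPKM with DMSO. The short H2AC6-202 had 2.32 and 1.79 FPKM with EPZ against 0.442 and 0.866 FPKM with DMSO. Leaving out EPZ replicate 2, DMSO replicate 1 or DMSO replicate 2 brought H2AC6 past the threshold (adjusted p = 0.0377, 8.13e-09 and 0.000135), while leaving out EPZ replicate 1 did not. Without DMSO replicate 2, H2AC19, H2BC4 and H4C14 passed as higher and H2AC20 as lower, making 5 of 13 members beside 1560 genes, or 12% of all, and without DMSO replicate 1 H2AC6 passed beside 80 genes in all. H2AC19 was there set against a listed 0 in DMSO replicate 1, where its near-identical copy H2AC18 held the whole sum of the pair. A fit with 1 library in a group takes its spread from the other group.

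The other H2A genes had lower levels and were less even. H2AC20, on chromosome 1, had 0.696 and 1.08 FPKM with EPZ against 2.51 and 1.21 FPKM with DMSO, the reverse of most of the family (log2 fold change -0.72 ± 0.33, SE; limma adjusted p = 0.756). H2AC11 had 1.05 and 1.11 FPKM with EPZ against 0.857 and 0.883 FPKM with DMSO. H2AC18 and H2AC19 share nearly all their sequence, as described with the knockdown lines, and their sum was 5.11 and 3.53 FPKM with EPZ against 3.85 and 3.43 FPKM with DMSO, so the groups overlapped. H2AC19 was listed at 0 in DMSO replicate 1, the library with the highest H2AC18 value, 3.85 FPKM.

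H2BC4 (ENSG00000180596, chromosome 6, 26114873 to 26123910, minus strand) encodes a core histone H2B and is the neighbour of H2AC6, read in the opposite direction from a start 234 bases away. It had 1.56 and 1.08 FPKM with EPZ against 0.139 and 0.398 FPKM with DMSO (log2 fold change 1.25 ± 0.34, SE; limma adjusted p = 0.756). The groups did not overlap, but both DMSO values were far under 1 FPKM. H2BC5, at 4.30 and 4.79 FPKM with EPZ against 3.02 and 2.71 FPKM with DMSO, was measured in the inhibitor table by the spliced H2BC5-201 alone, which lacks the stem-loop (log2 fold change 0.58 ± 0.18, SE; limma adjusted p = 0.756). H2BC12, the H2B gene with the highest level, had 13.9 and 12.5 FPKM with EPZ against 9.92 and 11.7 FPKM with DMSO, and its log2 fold change came to 0.27 ± 0.15 (SE; adjusted p = 0.756). H2BC21 had 1.47 and 1.72 FPKM with EPZ against 0.983 and 0.939 FPKM with DMSO. H2BC6 and H2BC18 stayed at or under 0.506 FPKM in all 4 libraries and were not tested.

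Among the H3 genes, H3C6 was the one tested, at 1.299 and 1.425 FPKM with EPZ against 0.737 and 0.713 FPKM with DMSO (log2 fold change 0.60 ± 0.26, SE; limma adjusted p = 0.756). H3C10 overlapped between the groups, and H3C12 was listed at 0 in EPZ replicate 1 and stood at 0.836 FPKM in EPZ replicate 2, against 0.896 and 0.293 FPKM with DMSO.

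H4C12 was the H4 gene with the highest listed level, at 8.44 and 9.68 FPKM with EPZ against 7.94 and 5.91 FPKM with DMSO. The log2 fold change was 0.37 ± 0.18 (SE, limma adjusted p = 0.756). Its near-identical copy H4C11, described with the knockdown lines, was not in the inhibitor table. The level listed for H4C12 therefore cannot be assigned to that copy alone. H4C14 had 5.10 and 3.72 FPKM with EPZ against 1.70 and 2.78 FPKM with DMSO (log2 fold change 0.86 ± 0.25, SE; limma adjusted p = 0.756). Over transcripts above 0 in all libraries its log2 fold change was 0.22 ± 0.23 (SE; limma adjusted p = 0.817), and without DMSO replicate 1 it was 0.57. Its near-identical copy H4C15 ran the other way, at 0.506 and 0.864 FPKM with EPZ against 1.89 and 0.586 FPKM with DMSO. Summed, the pair had 5.61 and 4.58 FPKM with EPZ against 3.59 and 3.36 FPKM with DMSO, and the log2 fold change was 0.49 ± 0.18 (SE; limma adjusted p = 0.756). H4C5 had 0.376 and 0.360 FPKM with EPZ against 0.154 and 0.176 FPKM with DMSO and was below the minimum. Of the H4C14 transcripts, H4C14-204, which runs 1167 bases past the stem-loop, had 3.11 and 1.04 FPKM with EPZ and was at 0 and 0.630 FPKM with DMSO, while the shorter H4C14-201 had 0.442 and 1.47 FPKM with EPZ against 0.630 and 1.67 FPKM with DMSO and overlapped.

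Grouped by their annotated ends, the 12 listed transcripts that run past the stem-loop summed to 14.4 and 13.1 FPKM with EPZ against 9.22 and 7.44 FPKM with DMSO. The 3 that lack the motif summed to 7.17 and 7.30 FPKM with EPZ against 3.90 and 3.82 FPKM with DMSO. H2AC18-201 and H2AC19-201, the 2 that end within 50 bases of the stem-loop, summed to 5.11 and 3.53 FPKM with EPZ. With DMSO the sums were 3.85 and 3.43 FPKM, and the groups overlapped. Both of these transcripts run 35 bases past the motif and also hold AATAAA near their annotated ends. The 6 transcripts with other coordinates summed to 33.9 and 35.3 FPKM with EPZ against 29.4 and 26.3 FPKM with DMSO. No test was made between these kinds of end.

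The adjacent pair H2BC4 and H2AC6 had the largest log2 fold changes of the members tested with EPZ. The pair was picked for display by these values, and H2BC4 reached the FPKM minimum only through the EPZ libraries. The DNA between its RefSeq start sites is shown (GRCh38.p14, chr6:26123927-26124171, plus strand, read towards H2AC6), since both genes of the pair are read outwards from it.
H2BC4 and H2AC6: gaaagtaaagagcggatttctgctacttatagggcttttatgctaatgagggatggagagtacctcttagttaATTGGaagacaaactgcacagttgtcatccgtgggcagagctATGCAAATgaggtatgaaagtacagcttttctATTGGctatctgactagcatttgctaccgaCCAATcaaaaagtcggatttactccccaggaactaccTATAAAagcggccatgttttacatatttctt
Capitals mark a CCAAT box (CCAAT, or ATTGG on the other strand), an octamer (ATTTGCAT, here as ATGCAAAT) and a TATA box (TATAAA), elements known from histone promoters, and these motifs do not overlap here. RefSeq promoters were found for 27 of the 28 members, each from 250 bases before to 50 after the start, and both strands were searched. The octamer was in 6 of 8 H2B and 5 of 9 H2A promoters, in 0 of the H1, H3 and H4 promoters, and in 1.8% of all 27305. CCAAT was in 22 of the 27, against 35.7% of all promoters, with 1 of 6 H4 promoters holding it. TATAAA was in 19 of the 27, against 12% of all promoters. The other divergent pairs with separate start regions, H2BC11 with H2AC11 (246 bases between the starts) and H2BC21 with H2AC20 (265 bases), were measured in part with EPZ: H2BC11 was not in the inhibitor table, and H2BC21 was higher while H2AC20 was lower. H2AC15 and H2BC15, whose transcripts overlap, were not in the inhibitor table.

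S-phase genes stood the other way. The 18 genes of that list, all of them measured, summed to 1006 to 1009 FPKM in EPZ cells against 1124 to 1135 FPKM in DMSO cells. Of the 18, 0 passed, against 0.00762% of all genes, and 7 had an unadjusted p under 0.05 (limma), against 5.83%. A log2 fold change above 0 was found in 4 of the 18, against 52.1% of all genes without the FPKM minimum. The median was -0.21 against 0.00 over all genes. MCM5, a subunit of the replicative helicase, had 39.5 and 40.9 FPKM with EPZ against 66.3 and 51.5 FPKM with DMSO (log2 fold change -0.54, limma adjusted p = 0.756). The 4 RNA-quality and nuclear RNAs, of which 0 passed, summed to 255 to 275 FPKM with EPZ against 221 to 262 FPKM with DMSO. All 4 had a log2 fold change above 0, with a median of 0.21 against 0.00 over all genes. Of these, 1 (TUG1) had an unadjusted p under 0.05 (limma). TUG1 stood at 42.6 and 45.6 FPKM with EPZ against 34.1 and 37.9 FPKM with DMSO. NORAD stood at 53.3 and 58.4 FPKM with EPZ against 43.3 and 48.8 FPKM with DMSO. For MALAT1 and NEAT1 the groups overlapped. The part of cell-cycle phase or RNA quality in the histone values was not tested.

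In the knockdown lines, no histone gene passed in any contrast, and for most the groups overlapped. The 23 genes in both tables summed to 40.9 and 40.9 FPKM in K56A, 39.2 and 35.0 FPKM in WT, and 36.1 and 39.1 FPKM in EV. K56A lay above both EV libraries, and WT overlapped EV. H1-2 was the one member that was higher in K56A than in each of the other lines with an unadjusted p under 0.05 in both contrasts, which share the K56A libraries. The K56A and WT contrasts with EV likewise share the EV libraries.

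**Figure D3:**
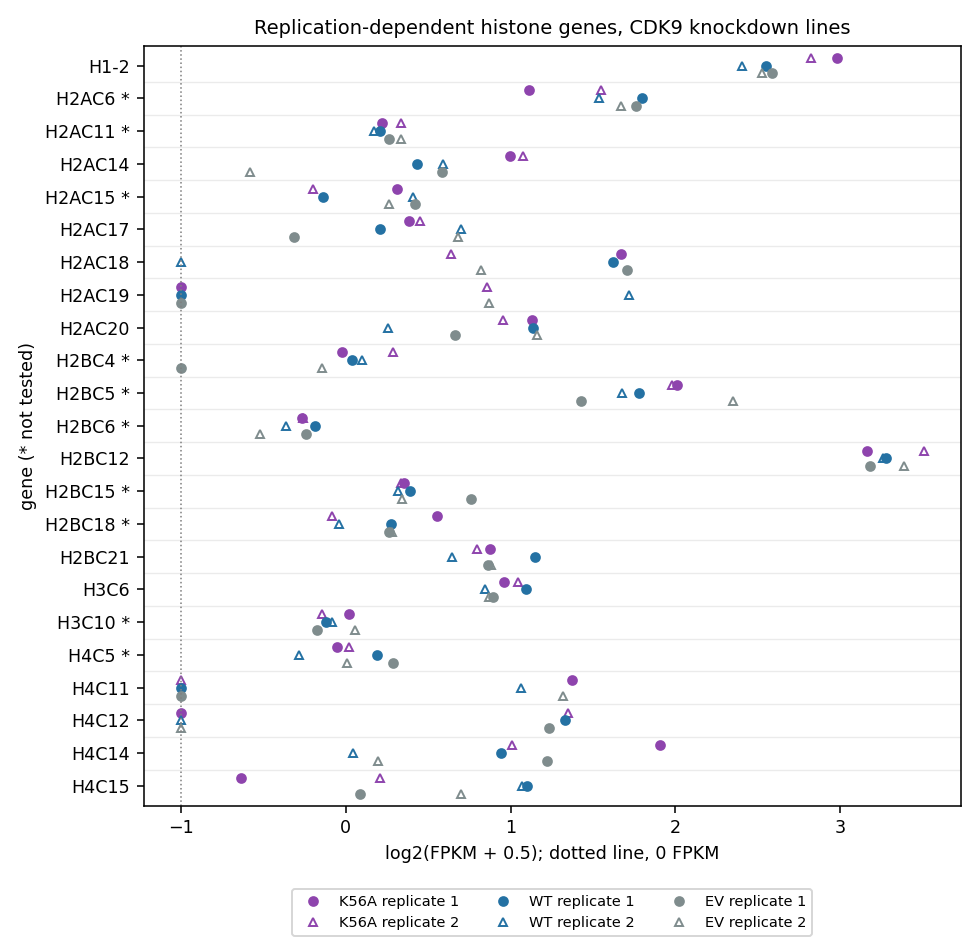
Level of each of the 23 histone genes in the 6 libraries of the CDK9 knockdown lines, as log2(FPKM + 0.5) on the horizontal axis, with K56A in purple, WT in blue and EV in grey from top to bottom within a gene, filled circles for replicate 1 and open triangles for replicate 2. H1-2 shows both K56A points to the right of the others, while H4C11, H4C12 and H2AC19 have 3 of 6 libraries each, and H2AC18 and H2BC4 have 1 each, on the dotted line that marks 0 FPKM.

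Of the 23, 13 were tested. H2AC6 and H2BC5 were left out of this fit because over 5% of their FPKM lay in transcripts present in only 1 of the knockdown tables, and 8 were below the FPKM minimum (H2AC11, H2AC15, H2BC4, H2BC6, H2BC15, H2BC18, H3C10 and H4C5). For K56A versus EV, 0 of 13 passed (limma, adjusted p under 0.05), where 0.787% of all 11566 genes did, and 2 of 13 had an unadjusted p under 0.05, against 15.1% of all genes. For WT versus EV, 0 of 13 passed against 0.536% of all genes, and 0 had an unadjusted p under 0.05 against 13.5%. For K56A versus WT, 0 of 13 passed against 0.0605%, and 2 had an unadjusted p under 0.05 against 13.0%. Both K56A libraries lay above both EV libraries for 3 of the 13 genes (H1-2, H2AC14 and H3C6), close to the 27.6% of all genes, and below them for 0, against 17.9%. The WT libraries lay above both EV libraries for H4C15 alone, against 22.6% of all genes, and below them for 0, against 20.9%. Both K56A libraries lay above both WT libraries for H1-2, H2AC14 and H4C14, against 26.0% of all genes, and below them for H4C15, against 19.5%. The medians over the 13 were 0.06 for K56A versus EV, 0.02 for WT versus EV and 0.07 for K56A versus WT, beside 0.03, 0.01 and 0.01 over all genes tested. Of the members in a single knockdown table, H1-4 had 0.375 and 0.469 FPKM in K56A against 0.454 and 0.238 FPKM in EV, and H4C9 had 0.0760 and 0.428 FPKM in K56A against 0.115 and 0.476 FPKM in EV. H2BC11 had 0.965 and 0.143 FPKM in WT against 0.558 and 0.838 FPKM in EV. These groups overlapped, none was tested, and H3C12 was in the inhibitor table alone. Apart from H2BC4, the members below the minimum had between 0.197 FPKM (H2BC6) and 1.19 FPKM (H2BC15), both in EV. H2AC20 had 1.69 and 1.44 FPKM in K56A, 1.699 and 0.694 FPKM in WT, and 1.09 and 1.74 FPKM in EV. H2BC21 had 1.33 and 1.24 FPKM in K56A, 1.71 and 1.06 FPKM in WT, and 1.317 and 1.34 FPKM in EV, and for both genes the 3 lines overlapped.

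H1-2 had 7.39 and 6.57 FPKM in K56A, 5.34 and 4.79 FPKM in WT, and 5.50 and 5.24 FPKM in EV. The K56A libraries stood above the other 4, and WT and EV overlapped. Its log2 fold change was 0.35 ± 0.10 for K56A versus EV (SE; limma adjusted p = 0.184), 0.43 ± 0.10 for K56A versus WT (SE; adjusted p = 0.170) and -0.08 ± 0.10 for WT versus EV (SE; adjusted p = 0.792). In GENCODE 29 its transcript shared no run of 50 bases with any other member. The H1-2 transcript differs in coordinates between the 2 annotations, so bases outside its GENCODE 29 record were not compared.

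Of the H2A genes, H2AC14 had 1.497 and 1.607 FPKM in K56A, 0.851 and 1.01 FPKM in WT, and 1.00 and 0.169 FPKM in EV. K56A was above both other lines, and the EV libraries lay far apart (K56A versus EV log2 fold change 1.03 ± 0.35, SE; limma adjusted p = 0.231). It was 1.62 without EV replicate 1 and 0.45 without EV replicate 2. In GENCODE 29, H2AC14 shares 83.7% of its windows of 50 bases with H2AC13. The H2AC14 transcript differs in coordinates between the 2 annotations, so bases outside its GENCODE 29 record were not compared. H2AC13 was in the WT table alone, at 0 and 0.750 FPKM in WT against 0.947 and 0.373 FPKM in EV. H2AC17 had 0.807 and 0.866 FPKM in K56A, 0.654 and 1.13 FPKM in WT, and 0.306 and 1.101 FPKM in EV, with all groups overlapping. H2AC6, counted over transcripts in both tables, had 1.66 and 2.43 FPKM in K56A, 2.97 and 2.40 FPKM in WT, and 2.88 and 2.68 FPKM in EV. Where genes with transcripts in a single table were kept, its log2 fold change was -0.38 ± 0.18 for K56A versus EV (SE; limma adjusted p = 0.385) and -0.05 ± 0.18 for WT versus EV (SE; adjusted p = 0.940). The K56A libraries lay below both EV libraries, and the WT libraries overlapped them.

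H2BC12 was again the highest member, at 8.44 and 10.9 FPKM in K56A, 9.18 and 9.08 FPKM in WT, and 8.54 and 9.96 FPKM in EV. The 3 groups overlapped, and no log2 fold change of H2BC12 was above 0.07 in size. H2BC5 had 3.52 and 3.44 FPKM in K56A, 2.934 and 2.695 FPKM in WT, and 2.19 and 4.59 FPKM in EV, so the EV libraries alone spanned all others. H2BC4, the gene with the largest log2 fold change with EPZ, had 0.485 and 0.720 FPKM in K56A, 0.527 and 0.573 FPKM in WT, and 0 and 0.407 FPKM in EV, below the minimum in every library. H2BC15 and H2AC15 overlap on opposite strands, and since the strand setting of the counting is not given their reads cannot be told apart. Of the H3 genes, H3C6 had 1.45 and 1.57 FPKM in K56A, 1.63 and 1.29 FPKM in WT, and 1.36 and 1.33 FPKM in EV.

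Several members are near-identical copies, and for H4C11 with H4C12 and H2AC18 with H2AC19 the level moved between copies from library to library while their sum was steady. H4C11 stood at 2.08 and 0 FPKM in K56A, 0 and 1.59 FPKM in WT, and 0 and 1.998 FPKM in EV. H4C12 stood at 0 and 2.04 FPKM in K56A, 2.02 and 0 FPKM in WT, and 1.85 and 0 FPKM in EV. In each of the 6 libraries 1 of the copies was listed at 0, and their sum ran only from 1.59 to 2.08 FPKM. All of the 50-base windows of H4C12 in GENCODE 29 occur in H4C11, and 81.2% of those of H4C11 occur in H4C12. The transcripts of both genes differ in coordinates between the 2 annotations, so bases outside the GENCODE 29 records were not compared. Each such 0 is the value listed for 1 copy in a library where the other copy held nearly the whole sum.

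**Figure D4:**
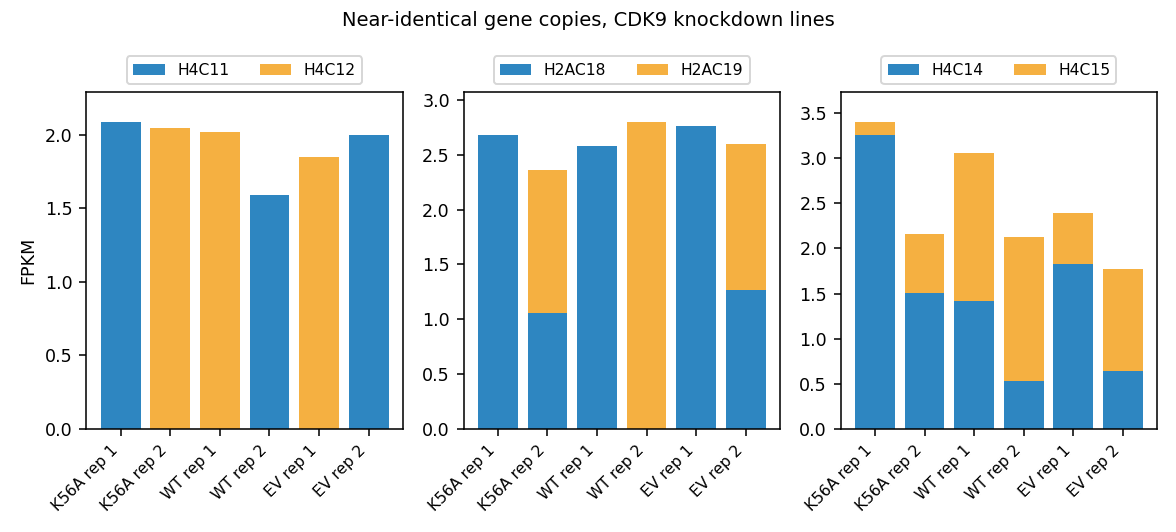
FPKM of 3 pairs of near-identical histone genes in the CDK9 knockdown lines, stacked so that the bar height is the sum of the pair, with K56A, WT and EV from left to right and a linear axis from 0. The split between the copies changes from library to library, while the sums lie between 1.59 and 2.08 FPKM (H4C11 and H4C12), 2.37 and 2.80 FPKM (H2AC18 and H2AC19) and 1.77 and 3.40 FPKM (H4C14 and H4C15).

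H2AC18 and H2AC19, which share all and 97.1% of their windows, were another such pair. H2AC18 had 2.69 and 1.06 FPKM in K56A, 2.58 and 0 FPKM in WT, and 2.77 and 1.27 FPKM in EV, and H2AC19 had 0 and 1.31 FPKM in K56A, 0 and 2.80 FPKM in WT, and 0 and 1.33 FPKM in EV. Their sum was 2.69 and 2.37 FPKM in K56A, 2.58 and 2.80 FPKM in WT, and 2.77 and 2.60 FPKM in EV. H4C14 had 3.26 and 1.51 FPKM in K56A, 1.42 and 0.529 FPKM in WT, and 1.83 and 0.645 FPKM in EV. H4C15 had 0.145 and 0.654 FPKM in K56A, 1.64 and 1.60 FPKM in WT, and 0.563 and 1.12 FPKM in EV. Taken alone, H4C15 had the second smallest p of the members for K56A versus WT (log2 fold change -1.30 ± 0.32, SE; limma adjusted p = 0.172) and H4C14 ran the opposite way (0.97 ± 0.44, SE; adjusted p = 0.406). For WT versus EV, H4C15 had the smallest p of the members (0.69 ± 0.32, SE; limma adjusted p = 0.407). Summed, the log2 fold change of the pair was 0.07 ± 0.23 for K56A versus WT (SE; adjusted p = 0.938), 0.33 ± 0.23 for K56A versus EV (SE; adjusted p = 0.549) and 0.26 ± 0.23 for WT versus EV (SE; adjusted p = 0.693). The sums were chosen for testing after the data were seen. After summing, the SE of the H4C11 and H4C12 contrast was 0.15, against 1.00 and 1.02 for the single genes, and that of H2AC18 and H2AC19 was 0.13, against 0.75 and 0.97.

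**Figure D5:**
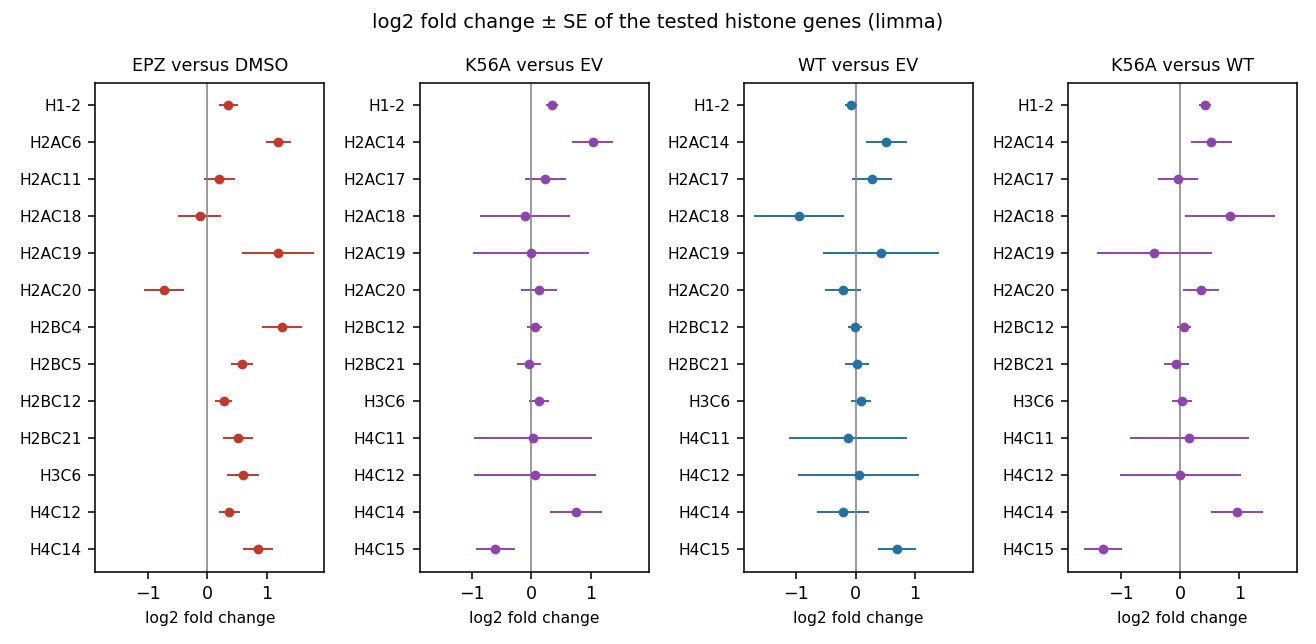
log2 fold change with its standard error (limma, horizontal bars) for the 13 tested histone genes in each of the 4 contrasts, given as the first-named group over the second, so that points right of the line at 0 are higher in EPZ, K56A, WT and K56A, from left to right. With EPZ, 11 of 13 genes lie right of 0, of which 4 entered the test through the EPZ libraries alone and H2AC19 with their help. In the knockdown contrasts H4C11, H4C12, H2AC18 and H2AC19 have the widest bars.

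In the authors' deposited tables, which test transcripts and not genes, 0 of 23 member transcripts had an adjusted p under 0.05 for EPZ versus DMSO (lowest 1.00), 0 of 31 for K56A versus EV (lowest 0.636) and 0 of 29 for WT versus EV (lowest 0.652). Over all transcripts in the authors' deposited tables, 752 of 62929, 2841 of 74761 and 2419 of 72555 passed. At an unadjusted p under 0.05 the authors' deposited tables hold 0 member transcripts in each contrast. The share of all transcripts under that value was not counted, so this 0 is not read as a result about the members.

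No gene of the machinery that makes and removes histone mRNA passed in any contrast. Few genes of any kind passed: 0.00762% with EPZ, 0.787% for K56A versus EV, 0.536% for WT versus EV and 0.0605% for K56A versus WT. For short lists, here and below, a count of 0 is therefore not read as a result about them. Apart from SLBP and NPAT, genes named from the lists were picked for small p-values within their list and are not taken as typical of it. Of 15 genes for 3' end processing, 0 of 15 tested passed with EPZ, and 0 of 14 tested passed in each knockdown contrast (limma, as above). At an unadjusted p under 0.05 (limma) there were 2 of 15 with EPZ, against 5.83% of all genes. There were 3 of 14 for K56A versus EV, against 15.1%, and 2 of 14 in each other knockdown contrast, against 13.5% (WT versus EV) and 13.0% (K56A versus WT). SLBP, which binds the stem-loop, had 46.2 and 53.7 FPKM with EPZ against 47.55 and 56.03 FPKM with DMSO (log2 fold change -0.05, adjusted p = 0.927). In the knockdown lines SLBP had 44.4 and 47.2 FPKM in K56A, 49.1 and 50.1 FPKM in WT, and 50.6 and 51.7 FPKM in EV, so that K56A lay below the other 4 libraries without passing the test (K56A versus EV -0.16, limma adjusted p = 0.203). SYMPK, the scaffold of the cleavage complex, had 43.0 and 42.4 FPKM in K56A, 39.7 and 39.8 FPKM in WT, and 38.5 and 38.7 FPKM in EV (K56A versus EV 0.14, limma adjusted p = 0.212). With EPZ, the smallest p of this list belonged to SNRPD3, a core Sm protein, at 67.3 and 58.7 FPKM with EPZ against 51.7 and 45.9 FPKM with DMSO, and CSTF2, a cleavage stimulation factor subunit, had 13.4 and 13.8 FPKM with EPZ against 17.1 and 16.8 FPKM with DMSO (limma adjusted p = 0.756 for each).

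NPAT, the activator of histone gene transcription at histone locus bodies, had 5.93 and 7.23 FPKM with EPZ against 4.45 and 7.71 FPKM with DMSO, and 8.26 and 7.95 FPKM in K56A, 8.05 and 8.04 FPKM in WT and 7.40 and 7.93 FPKM in EV. Of its list, 13 genes were tested with EPZ and 11 in the knockdown lines, and 0 passed in any contrast. In the list of the cap complex, NELF and H2B ubiquitylation 0 of 12 passed with EPZ and 0 of 10 in each knockdown contrast. With an unadjusted p under 0.05 (limma) there was 1 of 12 with EPZ, against 5.83% of all genes. In the knockdown lines there was 1 of 10 for K56A versus EV, against 15.1%, and 0 of 10 for WT versus EV, against 13.5%. For K56A versus WT there were 2 of 10, against 13.0%. SRRT (ARS2), a partner of the cap-binding complex, had 169.7 and 161.6 FPKM in K56A, 152.5 and 144.3 FPKM in WT, and 150.4 and 145.6 FPKM in EV (K56A versus EV 0.16, limma adjusted p = 0.161). UBE2B, a ubiquitin-conjugating enzyme for H2B, had 32.4 and 37.0 FPKM with EPZ against 25.3 and 27.7 FPKM with DMSO (0.38, limma adjusted p = 0.756). In histone mRNA decay 0 of 8 passed in each contrast, and among histone chaperones 0 of 15 did. Of the 15 chaperones, 3 had an unadjusted p under 0.05 (limma) for K56A versus WT, against 13.0% of all genes. CHAF1A, the large subunit of chromatin assembly factor 1, had 37.5 and 35.7 FPKM in K56A, 32.0 and 32.2 FPKM in WT, and 34.0 and 34.8 FPKM in EV (K56A versus WT 0.19, limma adjusted p = 0.202).

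Histone genes outside the rule were taken as a further list. Of its 14 genes, 12 were tested with EPZ and 11 in the knockdown lines, and 0 passed. Of the 12, 1 had an unadjusted p under 0.05 (limma) with EPZ, against 5.83% of all genes. Of the 11, 1 did in each knockdown contrast, against 13.0% to 15.1% of all genes. H3-3B, which encodes the replacement histone H3.3, had 444 and 438 FPKM in K56A, 437 and 410 FPKM in WT, and 407 and 416 FPKM in EV. H2AW, an H2A gene outside the main clusters whose transcript holds the stem-loop motif, had 6.43 and 6.58 FPKM with EPZ against 3.59 and 2.64 FPKM with DMSO (log2 fold change 0.97, limma adjusted p = 0.756). H2AX, whose gene also gives stem-loop and polyadenylated forms, had 62.2 and 51.1 FPKM with EPZ against 66.8 and 61.8 FPKM with DMSO. H2AZ2, which encodes a replication-independent H2A variant, had 61.5 and 66.2 FPKM in WT against 56.5 and 53.0 FPKM in EV (0.22, limma adjusted p = 0.138).

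In the knockdown lines 0 of 16 tested S-phase genes passed in each contrast. The summed level of all 18 genes of that list was 1176 to 1184 FPKM in K56A, 1169 to 1184 FPKM in WT and 1200 to 1232 FPKM in EV. The list of cell-cycle exit and differentiation genes had 5 of 10 tested with EPZ and 4 of 10 in the knockdown lines, and 0 passed. Among the 4 RNA-quality and nuclear RNAs, NEAT1, the long noncoding RNA of paraspeckles, rose in K56A, to 512 and 507 FPKM against 435 and 447 FPKM in EV (log2 fold change 0.21, limma adjusted p = 0.0269). Its level in WT was 493 and 489 FPKM (WT versus EV 0.15, adjusted p = 0.0764). The summed list ran from 668 to 672 FPKM in K56A, 654 to 662 FPKM in WT and 599 to 604 FPKM in EV, and its part in the H1-2 values was not tested.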

How the data were processed

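RNA from 10 HCT116 libraries was measured by poly(A)-selecting mRNA sequencing. The FPKM values per transcript were made and deposited by the authors, on GRCh38. RSEM 1.3.3, STAR 2.7.1a, Trim Galore 0.6.6 and DESeq2 1.32.0 stand in the submitters' processing notes, which give no roles. The tables also hold the authors' own log2 fold changes and p-values, by DESeq2 for the knockdown lines and by edgeR for the inhibitor, per the file headers. Neither the annotation release, the strand setting, the read depth nor any row filter is stated there or in the labels. Of 5675 transcripts in the K56A table only, 2458 were above 0 in both EV libraries, so absence from a table is not a level of 0. In all, 4 columns of per-group summaries were not used.

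FPKM were summed per gene. The knockdown fit used the 69086 transcripts in both tables, with the K56A libraries multiplied by 1.00066, the factor that equates the EV libraries of the tables. Of its genes, 2772 with over 5% of FPKM in single-table transcripts were left out. Tests were two-sided fits by limma (version 3.58.1, R version 4.3.3) of log2(FPKM + 0.5), with the prior variance following the mean level, for genes at 1 FPKM or more in at least 2 libraries, with Benjamini-Hochberg adjustment at 0.05 over all genes. The fit was tested on simulated data. Without counts, no count model was used. Members named with all values are those with a mean of 5 FPKM or more in any group and the 4 smallest p-values per comparison, with others given to complete each class or pair. Genes named from the other lists were picked among the 4 smallest p-values of their list in a comparison, with SLBP and NPAT always named. The alternatives were other pseudocounts, filters and scalings, a replicate block, single tables and each library left out. Sums, motifs and figures were made with matplotlib 3.10.9, numpy 2.4.6 and pandas 2.3.3 in Python 3.11.15. The members and gene lists were chosen with earlier results of these data known.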

Additional observations from a re-analysis of the deposited data

How the results depend on the processing

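For the named histone genes, 305 of the values under an alternative kept their direction and side of the threshold, 14 reversed, 5 newly passed and 0 lost a call, since none had passed. The 5 that newly passed belong to H2AC6, H2BC4 and H4C14 for EPZ versus DMSO with 1 library left out. In the knockdown contrasts no member passed with any library left out. The number of all genes past the threshold moved more.

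For EPZ versus DMSO, 1 gene passed. It was 0 with a pseudocount of 0.1, without the FPKM minimum, without the intensity trend and with only transcripts above 0 in all libraries, 2 with the replicate block, and 34 to 1560 with 1 library left out. The count of histone genes ran from 0 to 5 with 1 library left out. For K56A versus EV, 91 genes passed, against 55 without the minimum, 53 with the replicate block, 4 without the trend, 22 from the K56A table alone and 6 to 38 with 1 library left out. Rescaling the libraries by their median ratio gave 15 higher and 94 lower genes, in place of 22 and 69. For WT versus EV, 62 genes passed, against 40 without the minimum, 1 without the trend, 10 from the WT table alone and 2 to 7 with 1 library left out. For K56A versus WT, 7 genes passed, against 1 without the minimum, 3 with the replicate block, 0 without the trend and 1 to 2 with 1 library left out. The cause was not tested.

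Directions reversed with 1 library left out for H2BC12, H4C12, H2AC18, H2AC17 and H2AC14. For K56A versus EV, the log2 fold change ran from -0.12 to 0.22 for H2BC12, with -0.05 without EV replicate 1, and from -1.12 to 1.23 for H4C12, with -1.06 without EV replicate 2. For WT versus EV it ran from -1.12 to 1.22 for H4C12 (-1.06 without EV replicate 2), -2.27 to 0.36 for H2AC18, -0.22 to 0.52 for H2AC17, -0.072 to 1.09 for H2AC14 and -0.12 to 0.090 for H2BC12. For K56A versus WT it ran from -0.11 to 0.24 for H2BC12 and from -1.17 to 1.18 for H4C12 (-1.16 without WT replicate 2). H4C14 stood at -0.043 in that contrast with only transcripts above 0 in all libraries. The H2A sums averaged 9.797 FPKM in K56A, 9.655 FPKM in WT and 9.671 FPKM in EV. K56A minus EV was -0.0165 FPKM after rescaling, the reverse of that order, and 0.358 FPKM over genes at the FPKM minimum. WT minus EV was 0.228 FPKM over those genes, also a reversal.

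Equal replicate numbers do not pair the libraries in the labels, and with 2 numbers the data cannot settle it: deviations of same-numbered libraries correlated at 0.245 for EPZ and DMSO, -0.0149 for K56A and EV, 0.0332 for WT and EV and -0.0334 for K56A and WT. Read depth is unknown, so how far it limits the genes under 1 FPKM cannot be given.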
